A study of Mus musculus with 28 samples.

Results

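Replication-dependent histone genes encode the core histones H2A, H2B, H3 and H4 and the linker histone H1 that package newly made DNA. All 65 protein-coding genes of this family in the deposited counts were followed, out of 50600 genes in all, chosen by their names in the GENCODE M21 annotation (Hist1h, Hist2h, Hist3h and Hist4h) with pseudogenes left out. The family comprised 6 H1, 18 H2A, 16 H2B, 12 H3 and 13 H4 genes. Another 2 genes of the family, Hist1h2bm and Hist1h2bh, were not analysed here.

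The cells came from mammary glands of PdgfrαCre R26mTmG mice on a C57BL/6 background, adult females of 10 to 12 weeks. In these mice Cre is driven by the Pdgfrα promoter and turns membrane tdTomato into membrane GFP (eGFP in the labels) in cells that have expressed Pdgfrα and in their descendants, so that GFP marks a history of expression and not present expression. From each of 7 mice, GFP+ and tdTomato+ cells were sorted from the stromal fraction (CD49f- EpCAM-) and from the luminal fraction (CD49flo EpCAM+), after depletion of CD31, Ter119 and CD45 cells. A group of 4 mice was untreated and another of 3 received estrogen plus progesterone (E+P), which gave 8 groups and 28 libraries of total RNA. The methods give the pellets as 0.14 mg 17β-estradiol and 14 mg progesterone released over 14 days, in a sentence on wild-type mice.

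Most messenger RNAs end in a poly(A) tail, whereas replication-dependent histone messages end shortly after a conserved stem-loop that is bound by the stem-loop binding protein, *Slbp*. They are made in S phase, when DNA is copied, under the control of the coactivator *Npat*, and they are degraded when replication stops. Some members, among them *Hist1h1c*, *Hist1h2bc*, *Hist1h2be*, *Hist2h2be*, *Hist3h2a* and *Hist4h4*, are also known to give polyadenylated messages in cells that do not divide. The libraries were made with random priming from total RNA, so both kinds of message could be counted. In the mammary gland, estrogen and progesterone are known to drive the expansion of luminal cells.

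The members lie in a few clusters. On chromosome 13 lie 52 genes, in a block from chr13:21715763-22043676 with 22 genes and another from chr13:23531050-23934851 with 30. Chromosome 3 holds 10 members (chr3:96219865-96270132), chromosome 11 holds 2 and chromosome 6 holds *Hist4h4* alone (GRCm38). A stem-loop of 16 bases was found in the annotated transcripts of 44 members. The variants carried by most members are shown because the loop is the feature that sets these messages apart, with the 4 bases of the loop in capitals.
Form found in 24 members: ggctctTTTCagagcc
Form found in 7 members: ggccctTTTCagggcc
Form found in 6 members: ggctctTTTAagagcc
The first form was carried by *Hist1h1c*, *Hist1h1e* and *Hist1h2be*, and the third by *Hist1h1t*, the H1 of the testis. In 22 of the 44 the annotated transcript ran on for more than 100 bases after the loop, by 840 bases in *Hist1h1c*, 1643 in *Hist3h2a*, 1861 in *Hist1h2be*, 2445 in *Hist4h4* and 4884 in *Hist1h1d*, and in the other 22 it ended within 100 bases. The model of *Hist1h1d* also begins 1770 bases before its RefSeq start. In 21 members, including *Hist1h2bc* and *Hist2h2be*, no transcript of the model held a loop of this pattern.

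Promoters could be taken from RefSeq (GRCm38.p6) for 60 members, and those of 4 genes whose levels behaved differently in luminal cells are printed. The 250 bases before the transcription start are given on the strand of the gene, with 4 motifs in capitals wherever they occur on either strand: the octamer ATTTGCAT bound by Oct1, the TATAAA box, the CCAAT box and the H1 box AAACACA. They are *Hist1h1b* on the minus strand at chr13:21780626-21780875, *Hist1h2bb* on the plus strand at chr13:23746484-23746733, *Hist1h1c* on the plus strand at chr13:23738557-23738806 and *Hist3h2a* on the plus strand at chr11:58954435-58954684.
Hist1h1b: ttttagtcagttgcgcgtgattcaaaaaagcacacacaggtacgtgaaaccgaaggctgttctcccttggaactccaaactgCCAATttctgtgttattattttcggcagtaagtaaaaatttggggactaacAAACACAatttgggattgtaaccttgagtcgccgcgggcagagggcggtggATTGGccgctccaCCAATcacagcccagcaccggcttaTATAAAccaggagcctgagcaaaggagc
Hist1h2bb: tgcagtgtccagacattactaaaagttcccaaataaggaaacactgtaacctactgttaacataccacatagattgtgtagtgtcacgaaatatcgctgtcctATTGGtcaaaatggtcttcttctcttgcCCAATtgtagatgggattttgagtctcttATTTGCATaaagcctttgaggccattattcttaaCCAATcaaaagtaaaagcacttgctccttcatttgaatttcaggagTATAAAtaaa
Hist1h1c: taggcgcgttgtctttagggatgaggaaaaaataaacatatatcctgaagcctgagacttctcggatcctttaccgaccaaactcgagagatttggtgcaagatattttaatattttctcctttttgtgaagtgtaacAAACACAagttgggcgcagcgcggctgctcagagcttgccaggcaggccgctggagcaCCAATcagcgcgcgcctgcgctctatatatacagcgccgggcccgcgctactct
Hist3h2a: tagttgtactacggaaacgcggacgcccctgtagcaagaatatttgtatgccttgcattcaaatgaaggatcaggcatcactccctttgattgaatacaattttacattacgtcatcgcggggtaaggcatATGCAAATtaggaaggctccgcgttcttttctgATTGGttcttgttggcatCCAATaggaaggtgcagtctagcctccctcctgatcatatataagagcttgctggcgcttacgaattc
The octamer was present in 7 of 18 H2A and 5 of 14 H2B promoters and in none of the 28 of H1, H3 and H4 genes, against 1.60% of all 32851 promoters of the table. Windows of genes that lie head to head can overlap, so that the same site is counted for both genes. This held for the octamers of *Hist1h2bg* and *Hist1h2ae*, of *Hist1h2bk* and *Hist1h2ah*, and of *Hist1h2ba* and *Hist1h2aa*. The H1 box was present in 5 of 6 H1 promoters, against 6.25% of all. A CCAAT box stood in all H1, H2A and H2B promoters, in 8 of 10 of H3 and in 3 of 12 of H4, against 33.9% of all, and TATAAA in 29 of 60 members, against 12.4%. The promoters printed include both genes that rose with hormones and genes that did not, and the H1 box and a CCAAT box stood in *Hist1h1b* and *Hist1h1c* alike.

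Total counts ran from 8623383 to 24583803 per library, and 3 counts, the floor used here, corresponded to 0.116 to 0.302 CPM (the count of a gene relative to the library's total, with libraries scaled by the trimmed mean of M values, TMM). Pairs of libraries of a group correlated at r = 0.917 to 0.984 over log2 CPM, lowest in untreated tdTomato+ stroma. Of the 65 members 62 had at least 1 count. *Hist1h2aa*, *Hist2h2aa1* and *Hist2h3c1* had none. Every window of the *Hist2h2aa1* transcript and of the shortest *Hist2h3c1* transcript occurs in another gene too. In 32 members more than 50% of the 75-base windows of the transcript also occur in another gene, so that single members of the H2A, H2B, H3 and H4 classes are uncertain and their sums less so. Luminal markers (*Krt8*, *Krt18*, *Krt19*, *Epcam*, *Cldn3* and *Cldn4*) summed to 3832 to 7094 CPM in luminal libraries and to 3.49 to 455 CPM in stroma. Fibroblast markers summed to 30471 to 60013 CPM in GFP+ stroma, 1760 to 6408 CPM in tdTomato+ stroma and 7.10 to 108 CPM in luminal libraries. RNA integrity numbers of 1 to 10 are given for the extracts as a whole, and not per library.

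The levels of single members ranged widely, with H1 genes at the top. Per kilobase of exon and averaged over the 28 libraries, *Hist1h1c* reached 79.7 CPM, *Hist1h1e* 57.5, *Hist1h2bc* 39.4 and *Hist1h4d* 32.4. The next were *Hist2h2ac* with 19.3 and *Hist1h2af* with 18.5 CPM per kilobase, and among the other H1 genes *Hist1h1b*, which appears in dividing cells, had 17.9 and *Hist1h1a* 13.3. The long annotated exon of *Hist1h1d*, 7425 bases, lowers its value to 5.26. The 10 members with the highest CPM held 76.7% of all member counts. *Hist1h1t* stayed at a mean of 0.184 CPM over all libraries, at the level of the floor.

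The summed level of the family was highest in GFP+ luminal cells after E+P. In GFP+ luminal cells of untreated mice it was 612 ± 177 CPM (SD, n = 4), with 365, 742, 740.2 and 600.0 in the 4 mice, and it was 1426 ± 330.0 CPM (SD, n = 3) after E+P, with 1766, 1405 and 1107 in the 3 mice. In tdTomato+ luminal cells it was 790.4 ± 90.2 CPM (SD, n = 4) without and 672 ± 27.8 CPM (SD, n = 3) with treatment, from 693, 864, 871 and 734 and from 702, 647 and 668 CPM. The groups of GFP+ cells did not overlap, and the ratio of their means was 2.33, against 0.851 in tdTomato+ cells of the same mice. Without *Hist1h1c*, the most abundant member, the direction in tdTomato+ luminal cells turned, with a mean of 497 CPM without and 519 with treatment. In stroma the sums were lower, from 134 to 373 CPM by library, with means of 179 ± 52.4 CPM (SD, n = 4) and 155 ± 32.2 CPM (SD, n = 3) in GFP+ cells and 279 ± 76.4 CPM (SD, n = 4) and 232 ± 12.8 CPM (SD, n = 3) in tdTomato+ cells, the treated group second in each. Since these are bulk samples, more cells that express a gene and more RNA of it per cell cannot be told apart.

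**Figure D1:**
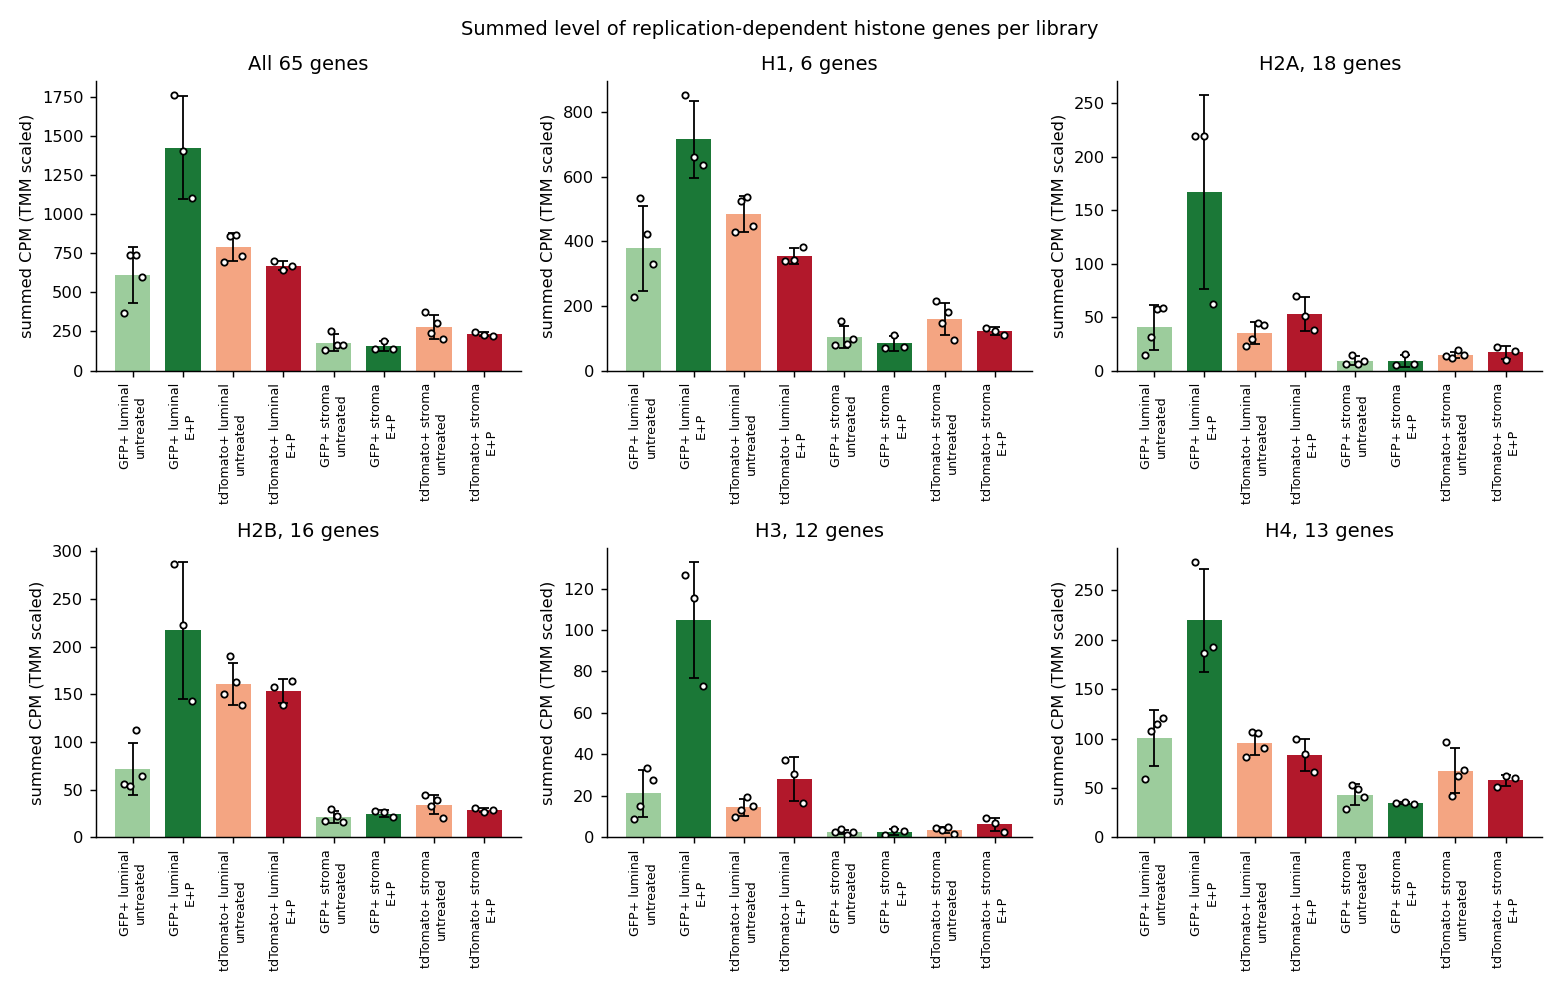
Summed CPM (TMM scaled, linear axis from 0) of all 65 replication-dependent histone genes and of each class in the 8 groups. Bars give the mean, error bars the SD and points the single libraries (n = 4 untreated, n = 3 E+P). For all genes, the 3 treated GFP+ luminal libraries lie between 1107 and 1766 CPM and every other library at or below 871 CPM.

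All 5 classes had a higher mean after E+P in GFP+ luminal cells, H3 and H2A by the largest ratios. The sum of H3 genes was 21.2 ± 11.3 CPM (SD, n = 4) without and 105 ± 28.1 CPM (SD, n = 3) with E+P, a ratio of 4.96. That of H2A was 40.3 ± 21.2 CPM (SD, n = 4) without and 167 ± 90.8 CPM (SD, n = 3) with E+P, a ratio of 4.15. The ratios were 3.04 for H2B, 2.18 for H4 and 1.89 for H1. The H2A sum was uneven among treated mice, with 219.6, 219 and 62.3 CPM, so that the third mouse stood just above the untreated maximum of 58.2. In tdTomato+ luminal cells the same ratios were 1.94, 1.50, 0.954, 0.872 and 0.732 in the order H3, H2A, H2B, H4 and H1. Without *Hist1h1c* the H1 sum of tdTomato+ luminal cells was 190.6 CPM without and 201 with E+P. *Hist1h1c* made up 24.8 ± 5.26% of the family's CPM in untreated GFP+ luminal cells and 12.2 ± 1.57% after E+P, and 37.0 ± 3.25% and 22.9 ± 5.37% in tdTomato+ cells. Of the 62 members with counts, 53 had their highest group mean in treated GFP+ luminal cells. The 7 that were highest in untreated tdTomato+ luminal cells were *Hist1h1c*, *Hist1h2bc*, *Hist2h2be*, *Hist3h2a*, *Hist3h2ba* and the low *Hist1h1t* and *Hist1h2ad*, and 2 low members were highest in treated tdTomato+ luminal cells.

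Whether hormones change histone genes in luminal cells with a Pdgfrα history was asked first. Of the 65 members 54 had enough counts to be tested in luminal cells and 11 had not. Beside the 3 without counts and *Hist1h1t*, these were *Hist2h2aa2*, *Hist1h2ah*, *Hist1h2ao*, *Hist1h2ap*, *Hist1h2ba*, *Hist1h2bq* and *Hist1h2br*. In GFP+ luminal cells 18 rose with E+P and none fell (edgeR quasi-likelihood test, adjusted p under 0.01), against 3.17% of all 16538 genes tested that rose and 2.78% that fell. The 18 were 3 H1, 1 H2A, 5 H2B, 4 H3 and 5 H4 genes. The median log2 fold change of the 54 was 2.02, against -0.03 for all genes, but members with low counts entered the test partly through the treated libraries, and neither value stands for the 11 that were not tested. In 39 of the 65 every treated library lay above every untreated one, as did 14.3% of all genes tested.

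Among the linker histones 3 of the 5 tested members rose. Log2 fold changes are given with a standard error (SE) derived from the F statistic of the test. *Hist1h1a* had 4.62, 8.55, 14.3 and 7.94 CPM in the untreated and 69.5, 44.2 and 39.8 in the treated GFP+ luminal libraries, a log2 fold change of 2.52 ± 0.37, adjusted p = 0.0011. *Hist1h1b* had 5.51, 11, 23.8 and 13.6 CPM without and 96.0, 67.1 and 62.4 with E+P (2.47 ± 0.43, adjusted p = 0.0032). Both are H1 genes of dividing cells, and each treated library stood above each untreated one. *Hist1h1d*, a linker histone with broader expression, had 28.9, 69.8, 55.7 and 43.6 CPM without and 172, 137.7 and 146 with treatment (1.61 ± 0.22, adjusted p = 0.00075). *Hist1h1e* gave 82.7, 245, 134 and 161 CPM without and 309, 257 and 232 with E+P, and its log2 value of 0.77 ± 0.25, adjusted p = 0.059, did not pass. *Hist1h1c* had 105, 200.3, 194 and 102 CPM without and 207, 155 and 155 with E+P, with both groups overlapping, at 0.19 ± 0.25, adjusted p = 0.67.

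The H2B genes, several of which lie head to head with H2A genes, gave the largest fold changes among the members that rose. *Hist1h2bl* had 0.443, 0.604, 1.77 and 0.629 CPM in untreated and 10.7, 7.05 and 4.62 in treated GFP+ luminal libraries, a log2 fold change of 3.06 ± 0.51, adjusted p = 0.0017. *Hist1h2bn* had 1.46, 1.91, 10.8 and 4.87 CPM without and 42.0, 32.7 and 24.2 with E+P (2.76 ± 0.59, adjusted p = 0.0089). *Hist1h2bb*, whose promoter is printed above, had 1.33, 3.32, 10.3 and 7.78 CPM without and 50.2, 37.2 and 23.6 with E+P (2.68 ± 0.55, adjusted p = 0.0071). In all 3 genes the groups stood apart, with the third untreated mouse the highest of its group. *Hist1h2bg* rose by 2.40 ± 0.36 and *Hist1h2be*, known for a polyadenylated message, by 1.25 ± 0.25, with adjusted p = 0.0012 and 0.0054. *Hist1h2be* shares bases with *Hist1h1e* on the same strand, so that their reads cannot be fully separated.

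Among the other core histones, H3 and H4 genes made up most of those that rose. *Hist1h3d* had 1.20, 1.41, 4.91 and 1.81 CPM in untreated and 16.5, 17.0 and 11.7 in treated GFP+ luminal cells (2.65 ± 0.42, adjusted p = 0.0015), with the third untreated mouse apart from its group. *Hist1h3a* had 0.887, 1.01, 2.17 and 1.96 without and 9.31, 7.91 and 5.29 with E+P (2.29 ± 0.47, adjusted p = 0.0060). *Hist1h4f* had 1.58, 2.42, 5.82 and 4.24 CPM without and 25.5, 13.2 and 13.2 with E+P (2.28 ± 0.40, adjusted p = 0.0024), and *Hist1h2ai*, the 1 H2A gene that passed, had 0.697, 1.11, 1.88 and 2.12 without and 12.4, 10.3 and 2.54 with E+P (2.52 ± 0.56, adjusted p = 0.0087). In *Hist1h2ai* the third treated mouse stood just above the untreated ones, and 89.3% of its transcript windows also occur in another gene. *Hist4h4*, on chromosome 6, shares 5.20% and had 3.74, 4.43, 3.43 and 6.99 CPM without and 13.5, 9.31 and 10.4 with E+P (1.25 ± 0.24, adjusted p = 0.0043). *Hist1h4d*, the most abundant H4 gene, went from 49.5 ± 11.1 to 88.6 ± 13.7 CPM (SD, n = 4 and n = 3), a log2 fold change of 0.84 ± 0.19, adjusted p = 0.0088. The other 4 members that passed, *Hist1h3e*, *Hist1h3f*, *Hist1h4a* and *Hist1h4k*, rose by 1.87 to 2.05 on the log2 scale. Of the remaining members among the 10 most abundant, *Hist1h4c* (0.87 ± 0.25, adjusted p = 0.032), *Hist2h4* (1.04 ± 0.28, adjusted p = 0.026) and *Hist2h2ac* (1.09 ± 0.45, adjusted p = 0.13) had positive values that did not pass. By cluster, 12 of 27 tested genes of the block of 30 on chromosome 13 rose, 5 of 17 of the block of 22, none of 7 on chromosome 3 and none of 2 on chromosome 11.

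Among the members known for polyadenylated messages, *Hist1h2be* and *Hist4h4* rose with E+P in GFP+ luminal cells, and 4 did not pass, *Hist1h1c* above and the following 3. *Hist1h2bc* had 38.9, 28.7, 55.2 and 18.4 CPM in untreated and 47.4, 33.6 and 21.1 in treated libraries (-0.06 ± 0.34, adjusted p = 0.93), and *Hist2h2be* had 1.84, 1.31, 2.51 and 2.67 without and 2.99, 1.51 and 1.17 with E+P (-0.17 ± 0.39, adjusted p = 0.81). *Hist3h2a* shares bases with *Trim17* on the same strand, so that its reads cannot be fully separated. It had 6.40, 6.24, 9.14 and 3.22 CPM without and 4.21, 4.25 and 3.66 with E+P (-0.64 ± 0.30, adjusted p = 0.17). For these genes the treated and untreated libraries overlapped, and together with *Hist1h1c* they made up 32.5 ± 8.62% of the family's CPM before and 15.0 ± 1.28% after treatment. By gene model, 9 of 20 tested genes whose transcript ran on past the loop rose, 3 of 18 whose transcript ended within 100 bases and 6 of 16 without a loop. The median log2 fold changes had another order, at 1.31, 2.29 and 2.44. These are classes of annotated models and not of messages. Those without a loop include short models, such as *Hist1h4k* with 312 and *Hist1h2bl* with 381 bases, beside *Hist2h2be* with 2620.

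Without the first treated mouse 3 members passed (*Hist1h1a*, *Hist1h1d* and *Hist1h2bg*), and without the second treated mouse 2 (*Hist1h1a* and *Hist1h1d*), while all genes called went from 985 to 273 and 169. Without the first untreated mouse 11 members passed and without the second 9, beside 464 and 751 of all genes. *Hist1h1a* and *Hist1h1d* passed in each of the 14 other settings at the same threshold, with adjusted p of 7.5e-10 to 0.0082 and 2.1e-09 to 0.0095. In the fit of these 2 groups alone, without the other luminal libraries, 10 members passed, beside 560 of all genes.

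**Figure D2:**
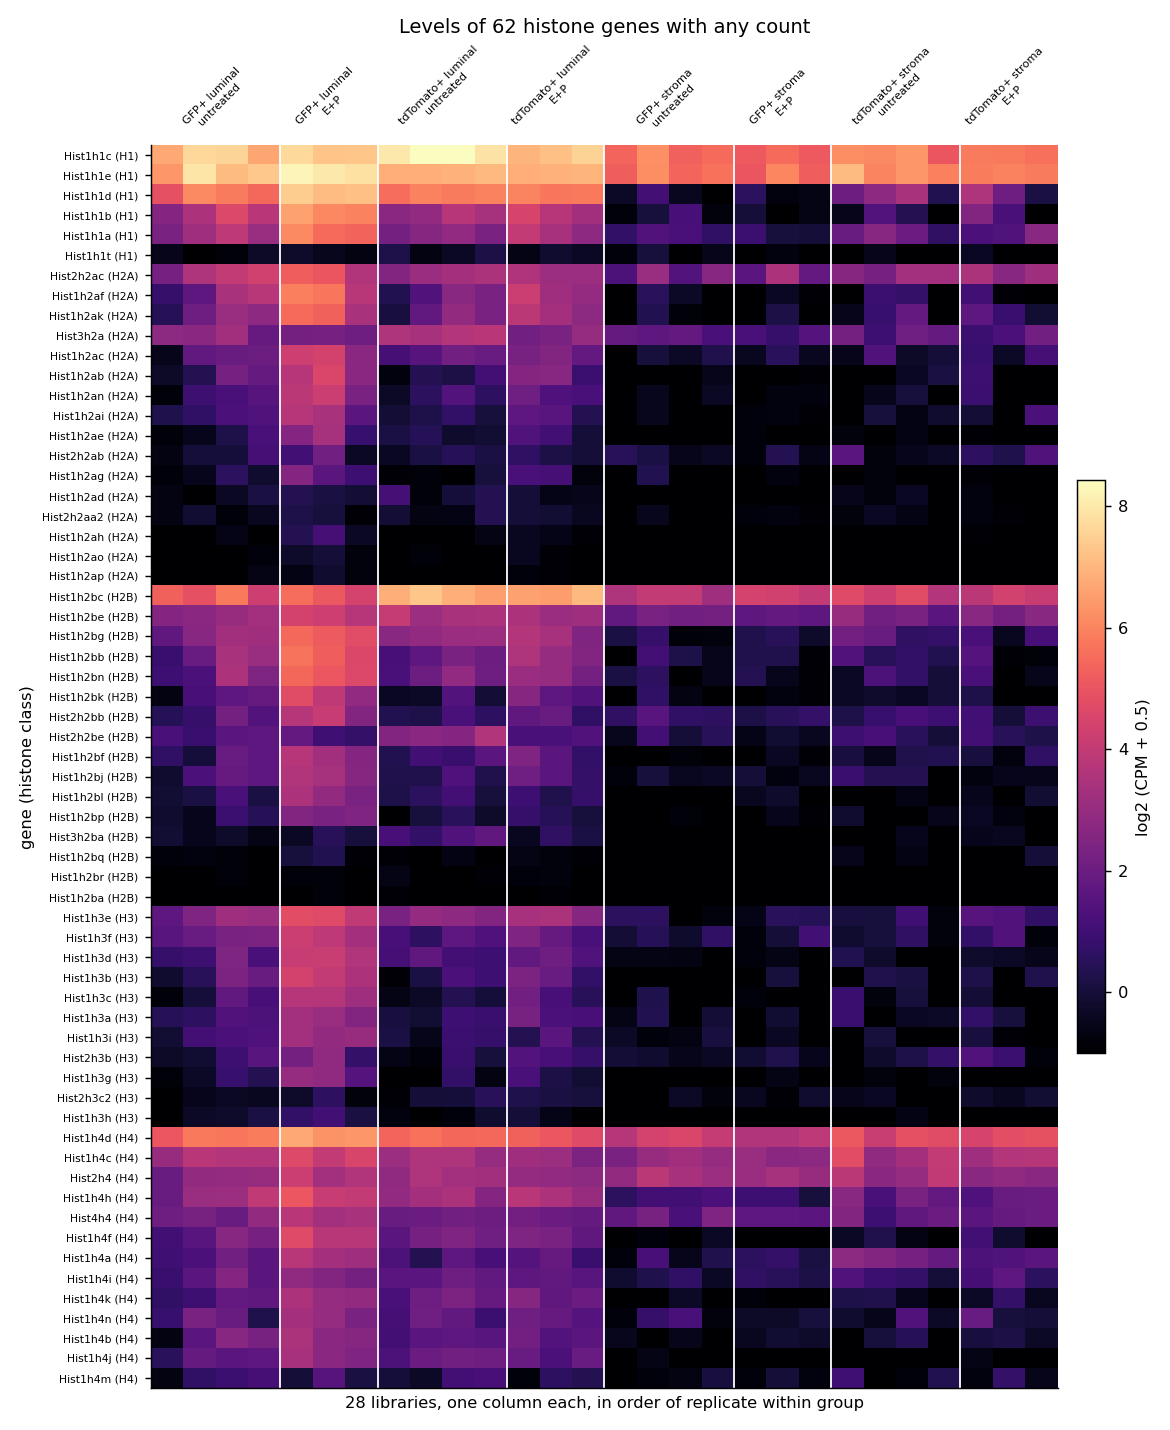
Levels of the 62 members with any count in the 28 libraries, as log2 (CPM + 0.5), ordered by class and mean level, with white lines between the 8 groups. The treated GFP+ luminal columns hold the highest group mean in 53 of the 62 rows, while Hist1h1c and Hist1h2bc have theirs in untreated tdTomato+ luminal columns.

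No member rose with E+P in tdTomato+ luminal cells of the same mice and 1 fell, against 7.63% of all genes that rose and 6.44% that fell. *Hist2h2be* went from 5.32, 6.08, 5.49 and 11.8 CPM in the untreated to 1.76, 1.79 and 2.19 in the treated mice (-1.88 ± 0.39, adjusted p = 0.0033), without overlap. This call was lost without the second or the third treated mouse (no member passed) and without the fourth untreated mouse, when *Hist3h2a* passed in its place. *Hist1h1c* had 258, 337, 342 and 237 CPM without and 125, 145 and 190.2 with E+P (-0.91 ± 0.26, adjusted p = 0.021), and *Hist3h2a* 11.2, 10.2, 12.2 and 13.5 without and 3.93, 4.61 and 7.37 with E+P (-1.12 ± 0.29, adjusted p = 0.012). For both genes each treated library lay below each untreated one, and neither passed. *Hist1h2bc* had 114, 157, 115 and 92.5 CPM without and 92.9, 90.4 and 130.2 with E+P (-0.17 ± 0.34, adjusted p = 0.74). The median of the 54 members was 0.42 on the log2 scale, against -0.05 for all genes. In 4 of the 65 members all treated libraries lay above the untreated ones and in 5 below, as did 17.1% and 18.8% of all genes tested. *Hist1h1a* had 4.13, 5.66, 6.79 and 4.61 CPM without and 15.9, 10.2 and 6.47 with E+P, at 1.06 ± 0.37, adjusted p = 0.049, and *Hist1h1b* 6.14, 6.81, 12.8 and 9.65 without and 21.5, 12.8 and 8.99 with E+P, at 0.73 ± 0.44, adjusted p = 0.24. In both the first treated mouse was the highest and the third stood within the untreated range.

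The difference between the responses of GFP+ and tdTomato+ luminal cells passed for 1 of the 54 members, against 0.786% of all genes with a larger and 1.49% with a smaller response in GFP+ cells. *Hist1h1d* had 46.9, 62.8, 56.0 and 62.4 CPM without and 63.4, 53.8 and 54.1 with E+P in tdTomato+ luminal cells, and the difference of its log2 fold changes was 1.58 ± 0.32, adjusted p = 0.0098. Its counts come from a long annotated exon of 7425 bases. Without the fourth untreated mouse or without any 1 of the 3 treated mice no member passed, and without the third untreated mouse it was *Hist1h3d* that did. Of the 54 differences 53 were positive, with a median of 1.27, against 0.01 for all genes. Members with low counts could enter this test through the treated GFP+ luminal libraries where they are high, which favours a positive difference. The members also share sequence and libraries, so the 54 are not separate observations. For *Hist1h1a* the difference was 1.46 ± 0.52, adjusted p = 0.12, for *Hist1h1b* 1.74 ± 0.62, adjusted p = 0.12, and for *Hist1h2bc* 0.11 ± 0.48, adjusted p = 0.93. With the mouse as a block, an alternative chosen after the data were seen, 7 members passed, among them *Hist1h1d* at adjusted p = 0.0023. The shares of all genes above belong to the fit without this block.

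**Figure D3:**
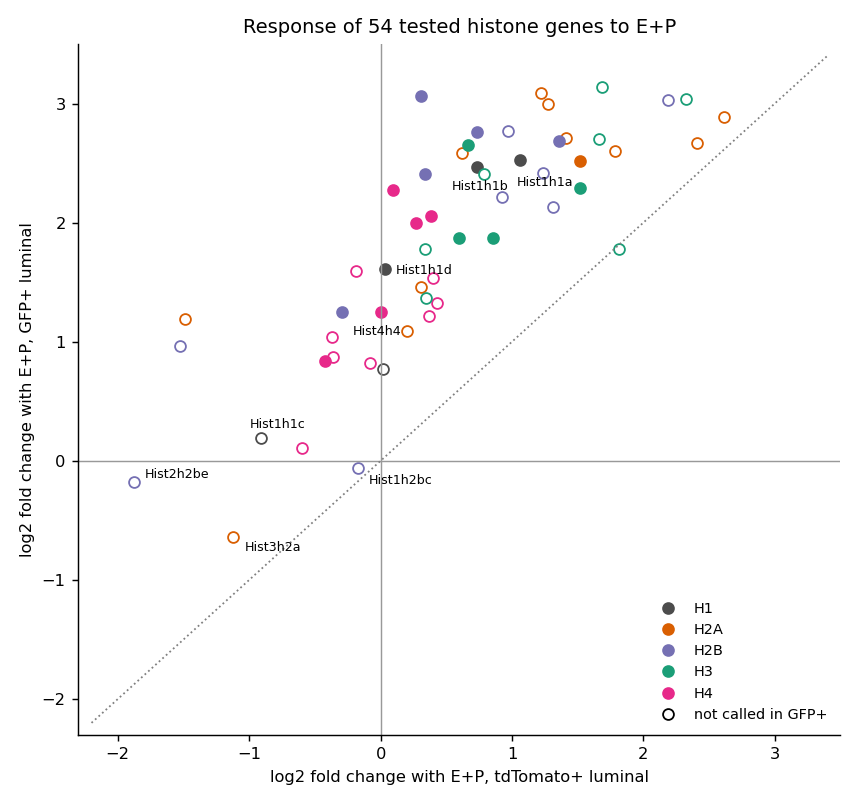
Log2 fold change with E+P in GFP+ luminal cells (vertical) against that in tdTomato+ luminal cells (horizontal) for the 54 tested members, coloured by class. Filled points passed the test in GFP+ cells, and the dotted line marks equal change. Of the 54 points 53 lie above the line, with Hist2h2be at -1.88 on the horizontal axis and -0.17 on the vertical one. Members with low counts could enter through the treated GFP+ libraries where they are high.

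Next, GFP+ and tdTomato+ luminal cells were compared over both treatments. Of the 54 tested members 15 were higher and 2 lower in GFP+ cells, against 15.7% and 19% of all genes. With the mouse as a block, since both subsets came from the same mice, 27 were higher and 3 lower. The shares of all genes above belong to the fit without the block and with all mice. Those with the block are not given here, so its counts do not show whether members gained more than other genes. In 11 of the 15 the gene had also risen with E+P in GFP+ cells, a comparison that shares those libraries. Of the 32 genes of S phase and division, 18 were higher in GFP+ cells and none was lower. Among markers, 3 of 6 luminal ones were lower in GFP+ cells (*Krt8*, *Krt19* and *Cldn4*), and 1 basal (*Krt14*), 1 fibroblast (*Pdgfra*) and 1 pericyte and smooth muscle marker (*Acta2*) were higher. The part of these differences in the histone levels was not tested. Without the first or the second treated mouse 8 members passed in all, without the third 9, and without the second or the fourth untreated mouse 10 and 9.

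The member lower in GFP+ luminal cells by the clearest margin was *Hist1h2bc*. It had 38.9, 28.7, 55.2 and 18.4 CPM in untreated GFP+ cells beside 114, 157, 115 and 92.5 in tdTomato+ cells of the same mice, and 47.4, 33.6 and 21.1 beside 92.9, 90.4 and 130.2 after E+P, a log2 fold change of -1.71 ± 0.25, adjusted p = 0.00013. It was lower in GFP+ cells in 7 of 7 mice, and no GFP+ library reached a tdTomato+ one. It was the 1 member of the 65 whose libraries did not overlap in this comparison, as did 5.87% of all genes in this direction. *Hist3h2ba*, a chromosome 11 H2B gene of low level, was lower as well (-1.47 ± 0.41, adjusted p = 0.0082), in 6 of 7 mice, but this call was kept in 3 of 13 alternatives, with adjusted p up to 0.038, while that of *Hist1h2bc* was kept in all 13. *Hist2h2be* (-0.93 ± 0.27, adjusted p = 0.011), *Hist3h2a* (-0.68 ± 0.21, adjusted p = 0.014) and *Hist1h1c* (-0.42 ± 0.18, adjusted p = 0.069) had negative values that did not pass. With the mouse as a block *Hist2h2be* passed at adjusted p = 0.0081.

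Higher in GFP+ luminal cells were members of every class. *Hist1h1a* (1.47 ± 0.26, adjusted p = 0.00051) and *Hist1h3f* (1.52 ± 0.27, adjusted p = 0.00041) were higher in 7 of 7 mice. *Hist1h1b* (1.48 ± 0.31, adjusted p = 0.0018), *Hist4h4* (0.97 ± 0.18, adjusted p = 0.00046), *Hist1h4d* (0.78 ± 0.13, adjusted p = 0.00029) and *Hist1h1e* (0.75 ± 0.18, adjusted p = 0.0041) were higher in 6 of 7. Among the members that passed, the largest values were those of *Hist1h3i* at 1.61 ± 0.42 and *Hist2h2bb* at 1.59 ± 0.40, and 5 that did not pass had larger ones, up to 1.99 ± 0.56 in *Hist1h3c*. Every window of the *Hist2h2bb* transcript also occurs in another gene, while Gm20628 overlaps it on the opposite strand. The untreated libraries of the subsets overlapped for *Hist1h1a*, at 4.62, 8.55, 14.3 and 7.94 CPM in GFP+ and 4.13, 5.66, 6.79 and 4.61 in tdTomato+ cells, and the treated ones did not.

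**Figure D4:**
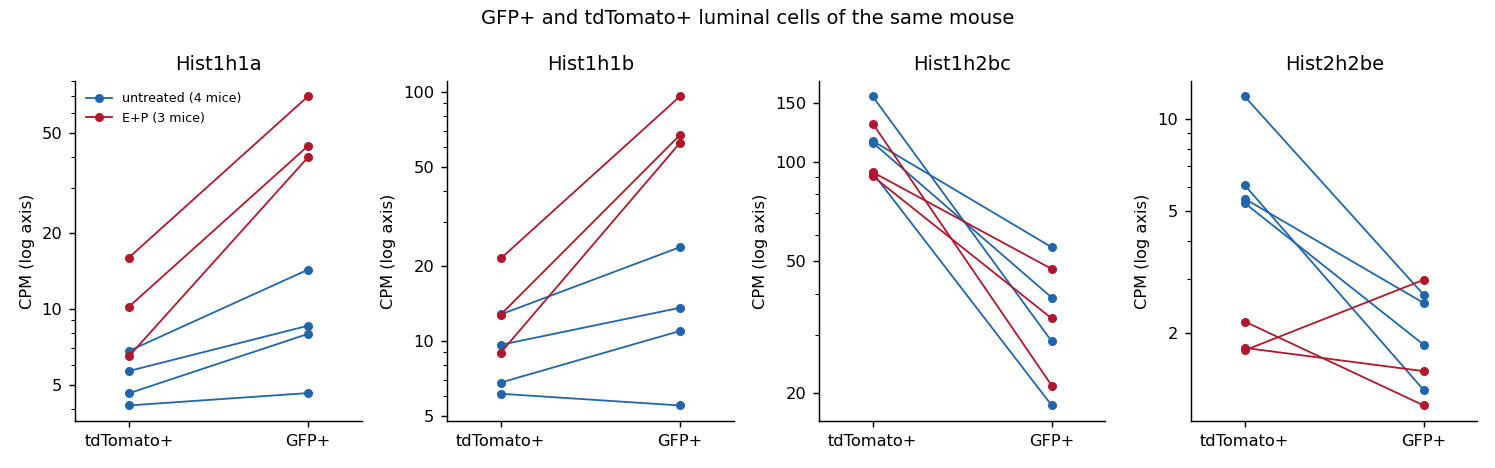
CPM (log axis) of 4 members in tdTomato+ and GFP+ luminal cells, with a line for each mouse, blue for the 4 untreated and red for the 3 treated mice. Lines rise to the right for Hist1h1a in 7 of 7 mice and fall for Hist1h2bc in 7 of 7, and for Hist2h2be the 4 untreated mice start above the 3 treated ones in tdTomato+ cells.

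The genes that make, process and carry histones were examined beside the family. Of 20 such genes 6 rose with E+P in GFP+ luminal cells and none fell, against 3.17% of all genes that rose. They were 2 subunits of the chromatin assembly factor, *Chaf1a* (2.23 ± 0.29, adjusted p = 0.00043) and *Chaf1b* (1.90 ± 0.36, adjusted p = 0.0039), the histone chaperone *Nasp* (0.86 ± 0.14), the histone acetyltransferase *Hat1* (0.84 ± 0.15), *Casp8ap2* (0.51 ± 0.10) and *Slbp*. *Slbp* had 26.0, 35.9, 34.8 and 24.1 CPM in untreated and 46.2, 51.1 and 45.1 in treated GFP+ luminal cells (0.65 ± 0.15, adjusted p = 0.0099), without overlap. *Npat* did not pass (0.27 ± 0.10, adjusted p = 0.087). In tdTomato+ luminal cells 3 of the 20 rose, *Nasp*, *Rbbp7* and *Cstf2*, against 7.63% of all genes, and *Slbp* was at -0.06 ± 0.15, adjusted p = 0.79.

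Genes of S phase and division moved in the same libraries. Of 32 such genes 25 rose with E+P in GFP+ luminal cells and none fell, against 3.17% and 2.78% of all genes. In tdTomato+ luminal cells 4 rose and 1 fell, against 7.63% and 6.44% of all genes. *Mki67*, which marks cycling cells, had 40.9, 54.5, 257 and 173 CPM in untreated and 1294, 1157 and 1105 in treated GFP+ luminal cells (3.17 ± 0.65, adjusted p = 0.0076), and 15.0, 58.2, 91.9 and 88.6 without and 264, 232 and 173 with E+P in tdTomato+ cells (1.85 ± 0.63, adjusted p = 0.046). The treated GFP+ libraries stood far above the rest. *Top2a*, which untangles DNA, changed by 2.91 ± 0.60, adjusted p = 0.0079, and *Pcna*, the sliding clamp of DNA polymerase, by 0.93 ± 0.15, adjusted p = 0.0016. The 32 genes summed to 279.7 to 783 CPM in untreated and 2253 to 2809 in treated GFP+ luminal libraries, and to 252 to 435 and 487 to 696 in tdTomato+ ones. The S phase sums of tdTomato+ luminal cells in treated mice lay above those of untreated mice, while the histone sums overlapped. The part of cycling cells in the histone levels was not tested.

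**Figure D5:**
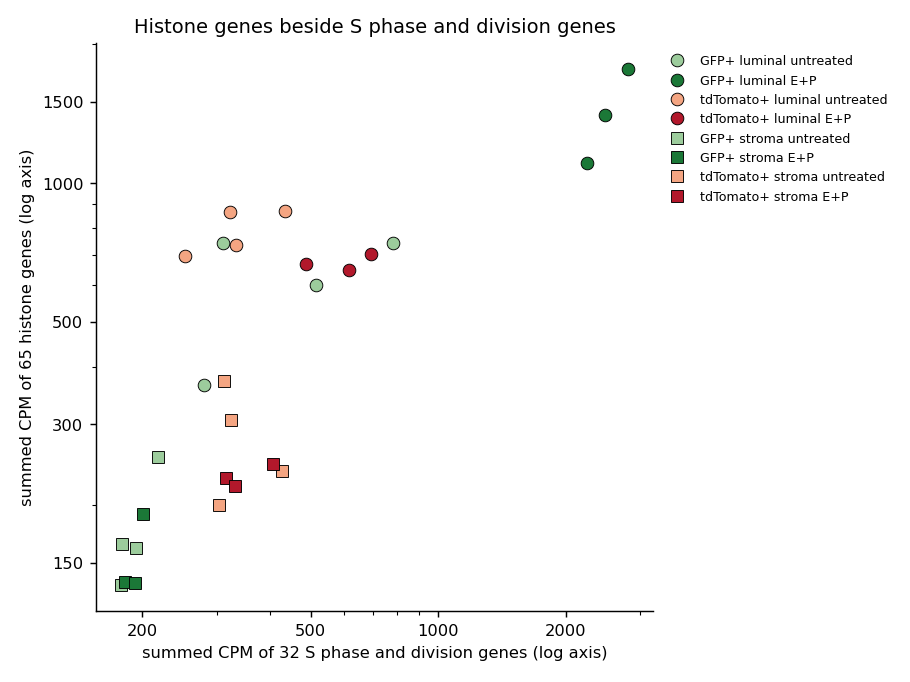
Summed CPM of the 65 histone genes (vertical, log axis) against the summed CPM of 32 S phase and division genes (horizontal, log axis), 1 point per library, circles for luminal and squares for stroma. The 3 treated GFP+ luminal libraries stand apart at 2253 CPM and above on the horizontal axis, and the untreated tdTomato+ luminal libraries reach 693 to 871 CPM on the vertical axis at 252 to 435 CPM on the horizontal one.

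Histone variants that are made outside S phase were followed in the same libraries. Of 11 such genes 2 rose with E+P in GFP+ luminal cells, against 3.17% of all genes. They were *H2afz* (1.51 ± 0.19, adjusted p = 0.00041), the gene of H2A.Z, and *Cenpa* (1.88 ± 0.31, adjusted p = 0.0017), the H3 variant of centromeres. *H3f3b*, which encodes H3.3, was at -0.16 ± 0.15, adjusted p = 0.52, and *H1f0*, the H1 of resting cells, at -0.34 ± 0.23, adjusted p = 0.34. Between the subsets of luminal cells 4 of the 11 were lower in GFP+ cells, *H2afy2* (-2.84 ± 0.38), *H1f0* (-1.19 ± 0.16, adjusted p = 5.5e-05), *H2afj* (-0.72 ± 0.13) and *H3f3b* (-0.67 ± 0.11), and *H2afz* was higher (1.05 ± 0.14), against 19% of all genes lower and 15.7% higher. No variant passed with E+P in tdTomato+ luminal cells.

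Markers of most other cell types were at low levels in the luminal libraries, and some moved with treatment in tdTomato+ cells. Pericyte and smooth muscle markers (6 genes) had a higher sum, at 158 to 209 CPM in untreated and 132 to 150 in treated GFP+ luminal libraries. Most of it came from other genes of the list than *Rgs5*, *Cspg4* and *Des*. These had 0.317 to 5.34, 0 to 1.26 and 0 to 3.85 CPM in the untreated libraries. In tdTomato+ luminal libraries they summed to 98.6 to 153 and 114 to 182 CPM, and none of the 6 was called with E+P in either subset. GFP+ stroma had 70.3 to 120 and 77.4 to 103 CPM of them. Fibroblast markers (6 genes) summed to 35.1 to 108 CPM in untreated and 21.9 to 24.7 in treated GFP+ luminal cells, with none of the 6 called, and basal markers (4 genes) to 13 to 19.4 and 28.5 to 43.6 CPM, with none of the 4 called. In tdTomato+ luminal cells the basal sum was 4.70 to 8.96 and 31.6 to 50.2 CPM, and 2 of the 4, *Trp63* and *Krt17*, rose. Of the other markers in tdTomato+ luminal cells, 1 of 6 fibroblast (*Dcn*, 2.96 ± 0.61), the 1 tested of 7 haematopoietic (*Csf1r*, 2.35 ± 0.59) and 1 of 6 luminal markers (*Cldn3*, 0.99 ± 0.15) rose. *Dcn* had 4.59, 3.53, 8.38 and 2.37 CPM without and 21.6, 33.5 and 51.4 with E+P. The fibroblast list as a whole did not follow it, with negative log2 values in 4 of the 6 and a median of -1.87, and none was called lower. The luminal markers gave 4851 to 6559.8 and 3832 to 4958 CPM in GFP+ cells, with none of the 6 called. Erythroid markers did not exceed 0.310 CPM in sum in any luminal library. The part of these cells in the histone levels was not tested.

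In stroma no member passed with E+P in either subset. Of the 65 members 33 were tested there, and of all 17783 genes 0.163% rose and 0.0675% fell in GFP+ and 0.0281% rose and 0.0956% fell in tdTomato+ stroma (edgeR). At an unadjusted p under 0.05 there was 1 member in each, *Hist1h4d* in GFP+ and *Hist2h4* in tdTomato+ stroma, beside 1429 and 2780 genes of all kinds, and DESeq2 called no member. The medians of the 33 were -0.31 and -0.07. *Hist1h1c* had 41.2, 75.4, 37.8 and 45.1 CPM in untreated and 34.1, 44.2 and 34.4 in treated GFP+ stroma (-0.40 ± 0.27), and *Hist1h4d* 12.4, 21.2, 22.6 and 16.1 without and 11.7, 11.9 and 14 with E+P (-0.52 ± 0.24). The groups overlapped for both genes. For *Hist1h1a* the difference of the response between luminal cells and stroma was 2.34 ± 0.49, adjusted p = 0.0025, the 1 member to pass, against 2.66% of all genes with a larger and 2.47% with a smaller response in luminal cells. It passed no longer without the first or second untreated mouse, or the first or second treated mouse. In the same comparison 7 of 32 S phase genes and 3 of 6 luminal markers passed with a larger response in luminal cells. The luminal markers summed to 18.5 to 83.1 CPM in untreated and 4.13 to 5.07 in treated GFP+ stroma, and to 18.2 to 455 and 3.49 to 37.6 CPM in tdTomato+ stroma, with negative log2 values for all 6 in both, none of which passed. Their part in the result was not tested.

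Between GFP+ and tdTomato+ stroma 7 of 33 tested members were lower in GFP+ cells and none was higher, against 21.3% and 20.6% of all genes. With the mouse as a block 3 were lower, while the shares of all genes above belong to the fit without it. *Hist1h1d* had 0.303, 1.63, 0.244 and 0 CPM in untreated GFP+ and 3.61, 6.50, 10.4 and 0.777 in tdTomato+ stroma, and 0.974, 0.106 and 0.148 and 11.2, 3.66 and 0.612 after E+P (-3.54 ± 0.86, adjusted p = 0.0034), lower in 7 of 7 mice. *Hist1h4d* (-0.82 ± 0.17, adjusted p = 0.00054) and *Hist1h4a* (-2.07 ± 0.48, adjusted p = 0.0014) passed with the block as well. The other 4 were *Hist1h1a*, *Hist1h4c*, *Hist1h4h* and *Hist1h2bf*, with log2 values of -3.39 to -0.88. Without the first untreated or the third treated mouse 2 members passed, and without the third untreated or the second treated mouse 3. The same subsets differed in all 5 skeletal muscle, all 6 pericyte and smooth muscle, 3 of 7 haematopoietic, 4 of 5 endothelial and 3 of 4 erythroid markers, which were higher in tdTomato+ stroma (edgeR, adjusted p under 0.01), and in all 6 fibroblast markers, which were higher in GFP+ stroma. Skeletal muscle markers summed to 1286 to 13885 CPM in tdTomato+ stroma and 0.0917 to 2.12 CPM in GFP+ stroma, and luminal markers to 3.49 to 455 CPM and 4.13 to 83.1 CPM. Of the 32 genes of S phase and division, 12 were lower and 1 higher in GFP+ stroma, with sums of 178 to 218 CPM in untreated and 182 to 200.5 in treated GFP+ stroma and 304 to 428 and 316 to 406 CPM in tdTomato+ stroma. The part of these genes and cells in the histone levels was not tested.

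Luminal cells had more of these messages than stroma. Over both subsets and treatments 48 of 54 tested members were higher in luminal cells and none was lower, against 30.5% and 33% of all 19569 genes. In the fit of stroma alone 33 members had enough counts, so that 21 of the 54 entered this test through the luminal libraries where they are high. For 8 members of the 65 every luminal library lay above every stromal one, as did 5.92% of all genes. *Hist1h4j*, an H4 gene of low level, had 0.950 to 9.99 CPM in luminal libraries and was at 0 to 0.155 CPM in stroma, at or under the floor. *Hist1h1d* was higher by 5.52 ± 0.41, adjusted p = 3.5e-11, and *Hist1h1b* by 4.74 ± 0.49, adjusted p = 1.1e-08. Members known for messages in non-dividing cells were higher as well, *Hist1h1c* by 1.88 ± 0.15, *Hist1h2bc* by 1.88 ± 0.16 and *Hist2h2be* by 1.89 ± 0.27. Those that did not pass were *Hist1h4c* (0.25 ± 0.17, adjusted p = 0.19), *Hist2h4* (-0.04 ± 0.16, adjusted p = 0.86), *Hist2h2ab*, *Hist1h4m*, *Hist2h3b* and *Hist2h3c2*. *Hist2h4* had a mean of 6.33 ± 1.99 CPM in the GFP+ luminal and 9.88 ± 2.98 in the GFP+ stromal cells of untreated mice (SD, n = 4 each). Of the 32 S phase genes 22 were higher in luminal cells and 2 lower.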

How the data were processed

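Read counts per gene, which the authors deposited for 28 libraries, were the unit of the data. Per the labels and methods, 2 ng of total RNA was made into stranded, ribosome-depleted libraries (15 cycles of PCR), sequenced as paired 75-base reads and aligned with STAR 2.5.2a to GRCm38.p5. The annotation release and the strand counted are not given in the sources used here. The treatment of multiply mapped reads is not given either. Counting intervals were not drawn, since reads carry no molecular identifiers. Gene names came from GENCODE M21.

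Counts were tested with edgeR 4.0.16 (R 4.3.3, TMM, filterByExpr, robust quasi-likelihood F test, Benjamini-Hochberg over all genes tested, threshold 0.01), in 1 fit of 4 groups for each lineage and 1 of all 28 libraries between lineages. Values are TMM-scaled CPM. Standard errors of log2 fold changes were derived from the test, as the absolute log2 fold change divided by the square root of F. The tests were checked on simulated data. Named were the 10 most abundant members, up to 10 called members per direction with a mean of 1 CPM or more in the higher group, members and related genes fixed from textbooks, and others where a count of 5 or fewer needed its names. Members and lists were chosen with earlier results of these data known.

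Subsets of 1 mouse are paired by the labels. Deviations from group means correlated at 0.157 on average in luminal and 0.0496 in stromal pairs of the same mouse, and at -0.0605 and -0.0194 in other pairs. Alternatives were DESeq2 1.42.0, limma-voom 3.58.1, other scalings, no filter, a threshold of 0.05, blocks, the compared groups alone, and each mouse left out.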

Additional observations from a re-analysis of the deposited data

Results flagged for a closer look

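In groups of 4 libraries, single libraries stood apart by Dixon's test in 9 of 182 groups examined, where chance gives about 1 in 20. The other 3 libraries of the group are given in parentheses. In GFP+ luminal cells, the third untreated mouse was high for *Hist1h2bl* at 1.77 CPM (others 0.443 to 0.629) and for *Hist1h3d* at 4.91 CPM (others 1.20 to 1.81), and the first was low for *Hist2h4* at 3.36 CPM (others 7.15 to 7.62). In tdTomato+ luminal cells, the fourth untreated mouse was high for *Hist2h2be* at 11.8 CPM (others 5.32 to 6.08), the second for *Hist1h3d* at 2.86 CPM (others 1.47 to 1.65) and the third for *Hist1h3g* at 1.16 CPM (others 0 to 0.116). In the second untreated mouse, *Hist2h2bb* was high in GFP+ stroma at 2.48 CPM (others 1.01 to 1.10), and *Hist1h3i* at 0.542 CPM (others 0) and *Mki67* at 93.7 CPM (others 14.9 to 27.7) were high in tdTomato+ stroma.

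The E+P response differed between groups of cells for 2 members by the test of the difference. *Hist1h1d* responded more in GFP+ than in tdTomato+ luminal cells on the log2 scale by 1.58 ± 0.32, adjusted p = 0.0098, and *Hist1h1a* more in luminal cells than in stroma by 2.34 ± 0.49, adjusted p = 0.0025 (edgeR quasi-likelihood test).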

How the results depend on the processing

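No direction of a named call was reversed by any alternative. For E+P in GFP+ luminal cells 18 members became 36 at a threshold of 0.05, 33 with DESeq2, 10 with the replicate number as a block, 10 with the compared groups alone and 2 to 16 with a mouse left out. The 985 of all genes became 2475, 2035, 904, 560 and 169 to 962 in the same order. For the other comparisons below no counts of all genes are given, so these do not show whether members changed more than other genes. For E+P in tdTomato+ luminal cells 1 became 5 (0.05), 3 (library size), 4 (DESeq2), 2 (limma-voom), 2 (no filter), 2 (block), 3 (groups alone) and 0 to 1. Between luminal subsets 17 became 31 (0.05), 29 (DESeq2), 30 (mouse block) and 8 to 23, and between stromal subsets 7 became 3 (mouse block) and 2 to 7. For the difference of the E+P response between luminal subsets 1 became 7 (0.05), 0 (DESeq2 size factors), 2 (library size), 6 (DESeq2), 2 (limma-voom), 2 (no filter), 0 (replicate number block), 7 (mouse block, added after the data were seen) and 0 to 1, and between luminal cells and stroma 1 became 5 (0.05), 5 (DESeq2) and 0 to 2. Luminal against stroma stayed at 45 to 50 with a mouse left out. The causes were not tested. Untreated and treated mice share only a number, and same-numbered libraries did not deviate together (mean r -0.0436 to 0.0129). With GFP+ and tdTomato+ cells paired, the mouse block moved no count beyond those given here by over 1.5 times.

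Scaling by library size alone moved the median of all genes to -0.14, -0.27, 0.14 and 0.27 on the log2 scale for E+P in GFP+ and in tdTomato+ luminal cells, for GFP+ against tdTomato+ luminal cells and for luminal cells against stroma. With it, the summed CPM of all members was 893 in untreated tdTomato+ luminal cells and 212 in treated tdTomato+ stroma, the H1 sum 547 and the H4 sum 108 in untreated tdTomato+ luminal cells, the H2B sum 26.3 in treated tdTomato+ stroma and the H4 sum 30.2 in treated GFP+ stroma. Without *Hist1h1c*, the most abundant member, the sum of all members was 497 and 519 CPM in untreated and treated tdTomato+ luminal cells, 117 in treated GFP+ stroma and 179 in treated tdTomato+ stroma, and the H1 sum was 228 and 545 in GFP+ luminal, 191 and 201 in tdTomato+ luminal, 53.2 and 46.4 in GFP+ stromal and 95.4 and 69.6 in tdTomato+ stromal cells, untreated and treated. Depth limits members near the floor, and 11 of the 65 were not tested in luminal cells and 32 in stroma.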
